A study of Mus musculus with 12 samples.

Results

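The genes described here make cholesterol and fatty acids or control that synthesis: 29 genes, chosen by symbol and function, of 55401 gene identifiers in the series. They comprise 7 genes of the mevalonate pathway, 11 of the steps from squalene to cholesterol, 6 that control synthesis or carry sterol within the cell, and 5 of fatty acid synthesis. Their RNA was measured in live cells sorted for CD45, found on all white blood cells, and CD11c, which dendritic cells and many macrophages carry. The cells came from tumours of B16-OVA, a mouse melanoma line that expresses ovalbumin as a model antigen, in mice labelled WT. The 12 libraries fall into 4 groups of 3. The untreated group received neither agent, the fusion protein group a fusion protein (20 mcg on day 10, then on day 14 a dose of 10 mcg), the 20 Gy group radiation of 20 Gy on day 10, and the combined group both. Day 17 was the time of collection in every group. What the fusion protein is made of, the age and strain of the mice and the number of mice per library are not stated in the labels. Nothing in them says that replicate libraries are from different animals. The p-values therefore measure the spread among libraries alone, and part of it may be technical.

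Cholesterol is built from acetyl-CoA through mevalonate, isoprenoids, squalene and lanosterol, and fatty acids are built from the same precursor through malonyl-CoA. Both arms are switched on by the transcription factors SREBP2 and SREBP1, the products of Srebf2 and Srebf1. The escort protein SCAP carries them out of the endoplasmic reticulum when sterol is scarce, and the INSIG proteins hold them back when sterol is plentiful. In macrophages and dendritic cells the pathway is known for its link to type I interferon, which induces the enzyme that makes 25-hydroxycholesterol, an oxysterol that holds back SREBP processing.

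SREBPs bind sterol regulatory elements close to the start of their targets, usually beside sites of the factors NF-Y (CCAAT) and Sp1 (GGGCGG). Promoter stretches from RefSeq (GRCm38.p6) are shown for 4 genes described below: the mevalonate enzyme Hmgcs1, the feedback regulator Insig1, the factor gene Srebf2 and the fatty acid synthase gene Fasn. Capitals mark CCAAT and its reverse complement, which reads ATTGG. They also mark GGGCGG and its reverse complement, which reads CCGCCC, and the palindromic E-box CACGTG. The sterol element letters are TCACNCCA and run on to TCACNCCAC in Hmgcs1.
Hmgcs1: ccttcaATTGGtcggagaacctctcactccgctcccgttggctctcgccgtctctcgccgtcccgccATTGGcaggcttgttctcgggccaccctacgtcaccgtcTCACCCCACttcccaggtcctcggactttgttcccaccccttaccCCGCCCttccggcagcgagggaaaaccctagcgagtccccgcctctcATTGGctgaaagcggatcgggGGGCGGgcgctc
Insig1: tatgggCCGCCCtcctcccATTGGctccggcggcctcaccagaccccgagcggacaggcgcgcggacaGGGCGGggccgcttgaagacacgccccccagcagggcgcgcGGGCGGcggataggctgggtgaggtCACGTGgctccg
Srebf2: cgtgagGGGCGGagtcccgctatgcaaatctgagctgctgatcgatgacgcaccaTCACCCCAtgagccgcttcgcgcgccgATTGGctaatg
Fasn: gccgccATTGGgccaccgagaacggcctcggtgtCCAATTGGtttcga
The Hmgcs1 stretch is chr13:119690108-119690338 on the plus strand and the Insig1 stretch chr5:28071177-28071322 on the plus strand. The Srebf2 stretch is chr15:82147052-82147144 on the plus strand and the Fasn stretch chr11:120824596-120824643 on the minus strand. Each is written 5′ to 3′ on the strand of its gene, and all 4 end before the annotated gene body. In Fasn the capitals CCAATTGG hold CCAAT and its reverse complement, which overlap by 2 bases.

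A RefSeq window was matched for 23 of the 29 genes, and the 250 bases before the start were searched on both strands. CCAAT was found in 19 of 23 (82.6%), against 37.5% of 27025 genes with a window, and GGGCGG in 20 of 23 (87%), against 35.4%. CACGTG was found in 5 of 23 (21.7%), namely Hsd17b7, Sc5d, Dhcr7, Scap and Insig1, against 6.86% of all genes. The stricter sterol element TCACNCCAC matched in Hmgcs1 alone (4.35%, against 1.22%), and TCACNCCA, a form added after the Srebf2 window had been read, in Hmgcs1, Msmo1 and Srebf2 (13%, against 4.2%). The form CACNCCAC, which overlaps both, matched in Acat2, Hmgcs1 and Insig1 (13%, against 6.05%). A match is a description of letters and does not show that a factor binds there.

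Library depth was 14462032 to 23985496 reads in genes, of which 16520 to 31525 per library fell in the 29 genes. The marker Itgax, which encodes CD11c, was present at 2226 to 9497 normalized counts per library, and all 11 genes of a conventional dendritic cell list were detected in every library. Transcripts of other cells were present too. A melanoma list of 7 genes summed to 1302 to 15556 in the 4 libraries numbered 3 and to 96.1 to 430 in the other 8. A B cell list of 6 genes summed to 149 to 323 in 3 of these 4, all but the combined one, and to 2672 to 17560 in the other 9. In 20 Gy libraries 1 and 2 and combined library 1, the share of 1988 receptor genes of smell (olfactory, vomeronasal or trace-amine) with a read was 74.8%, 54.98% and 54.07%, against 4.53% to 36.97% in the others.

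All 29 genes were measured in every library, with the lowest value at 14.2 normalized counts (Tm7sf2 in combined library 2), and all 29 entered the test. Per kilobase of exon, the level in the untreated group was highest for Acly, the enzyme that makes acetyl-CoA from citrate, at 650.3 ± 184 normalized counts per kb (SD, n = 3). Srebf2 followed at 539 ± 124, Insig1 at 425 ± 396, the stearoyl-CoA desaturase genes Scd2 at 341 ± 113 and Scd1 at 337 ± 279, and Fasn at 306 ± 115. Hmgcs1, a synthase of the mevalonate pathway, had 222 ± 132 per kb, and Cyp51, the lanosterol demethylase, 211 ± 205. The kinase gene Pmvk had 177 ± 89.9 and Srebf1 157 ± 56.5. Each of these neighbours in the order differed by less than the larger of their SDs. At the low end stood the lanosterol synthase gene Lss at 20.9 ± 3.13, Fdps, which makes farnesyl diphosphate, at 12.8 ± 12.5, and the sterol reductase gene Tm7sf2 at 11.6 ± 2.71. The last pair is uncertain, since Fdps shares 1124 exon bases with Gm43738 and Tm7sf2 shares 532 with Vps51 on the same strand, where reads may be split or dropped. Fdft1 shares 774 exon bases with Ctsb, Cyp51 166 with Akap9, Hmgcs1 557 with Gm48342, each on the opposite strand, and whether the counting used strand is not stated.

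Cyp51, Insig1 and Hmgcs1 moved together from library to library more than from group to group. Cyp51 had 504.7, 320.8 and 1974.9 normalized counts in untreated libraries 1, 2 and 3, 504.5, 255.3 and 1296.5 with the fusion protein, 543.8, 490.7 and 2095.3 after 20 Gy, and 543.0, 406.6 and 624.9 in the combined group. Insig1 (chromosome 5, 28071363 to 28078662), whose own transcription is an SREBP readout, had 709.2, 506.7 and 2723.8, then 710.8, 581.5 and 1332.7, then 613.3, 630.0 and 2312.6, and then 729.1, 696.8 and 1062.5 in the same order. Hmgcs1 (chromosome 13, 119690379 to 119708260) had 840.2, 526.7 and 1697.6, then 785.8, 425.5 and 943.8, then 855.3, 769.3 and 2090.1, and then 935.8, 725.1 and 708.6. In all 3 genes, library 3 stood above libraries 1 and 2 in each group but the combined one. There the same held for Cyp51 and Insig1, and library 3 was the lowest for Hmgcs1.

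**Figure D1:**
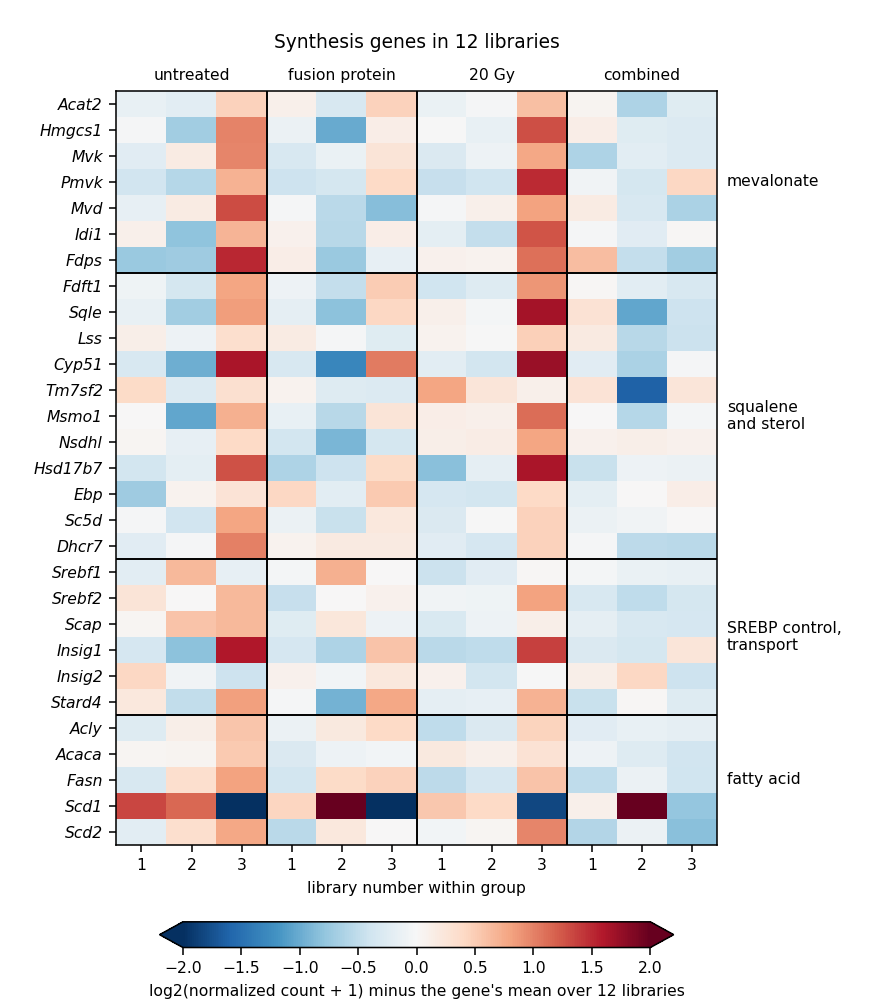
Level of the 29 genes in the 12 libraries. Each cell is log2(normalized count + 1) minus that gene's mean over 12 libraries, with rows in 4 role groups and columns by group and library number, and colours end at −2 and 2. Library 3 of the untreated and 20 Gy groups is high in nearly every row, Scd1 runs the other way, and combined library 3 is not high.

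Over the whole set, library 3 was the highest of its group for 25 of 29 genes in the untreated group, 20 of 29 with the fusion protein and 26 of 29 after 20 Gy. Over all 18274 tested genes library 3 was the highest for 38.4%, 39.0% and 41.6%. The combined group was unlike these, with 6 of 29 genes highest in library 3 (all genes 32.4%) and 14 of 29 in library 1. The median ratio of library 3 to the mean of libraries 1 and 2 was 1.91 in the untreated group, 1.28 with the fusion protein, 1.83 after 20 Gy and 0.957 in the combined group, against 0.949 to 0.997 over all genes. By role, this ratio in the untreated group was 2.23 for the mevalonate genes, 2.01 for the sterol genes, 1.34 for control and transport and 1.53 for fatty acid synthesis. For single genes in the untreated group it reached 4.89 for Fdps, 4.78 for Cyp51 and 4.48 for Insig1. The within-group SD of the log2 level was 0.478 as a median over the 29 genes, 0.384 over 10869 genes in the same range of mean level and 0.553 over all tested genes.

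Other transcripts moved with the same libraries. The median log2 deviation of the 18 mevalonate and sterol genes from their means over 12 libraries was −0.15, −0.31 and 0.79 in untreated libraries 1, 2 and 3. It was −0.11, −0.46 and 0.24 with the fusion protein, −0.16, −0.07 and 0.85 after 20 Gy, and 0.02, −0.33 and −0.18 in the combined group. The melanoma list summed to 162, 96.1 and 1802 normalized counts in the untreated libraries, to 154, 149 and 4619 with the fusion protein, to 237, 244 and 15556 after 20 Gy, and to 264, 430 and 1302 in the combined group. The melanoma sum was highest in library 3 of every group, and the sterol deviation in library 3 of every group but the combined one. Of the 7 melanoma genes, at most 2 were at 0 in any library, and none was at 0 in a library numbered 3. Proliferation genes, 11 in the list, summed to 8682, 11705 and 11849 in the untreated libraries, to 19407, 14173 and 28248 with the fusion protein, to 10186, 11630 and 17225 after 20 Gy and to 18090, 16223 and 17412 in the combined group. The part of melanoma, B cell or proliferating cells in this pattern across libraries was not tested. In such bulk libraries, fewer cells of a type and less RNA per cell cannot be told apart.

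**Figure D2:**
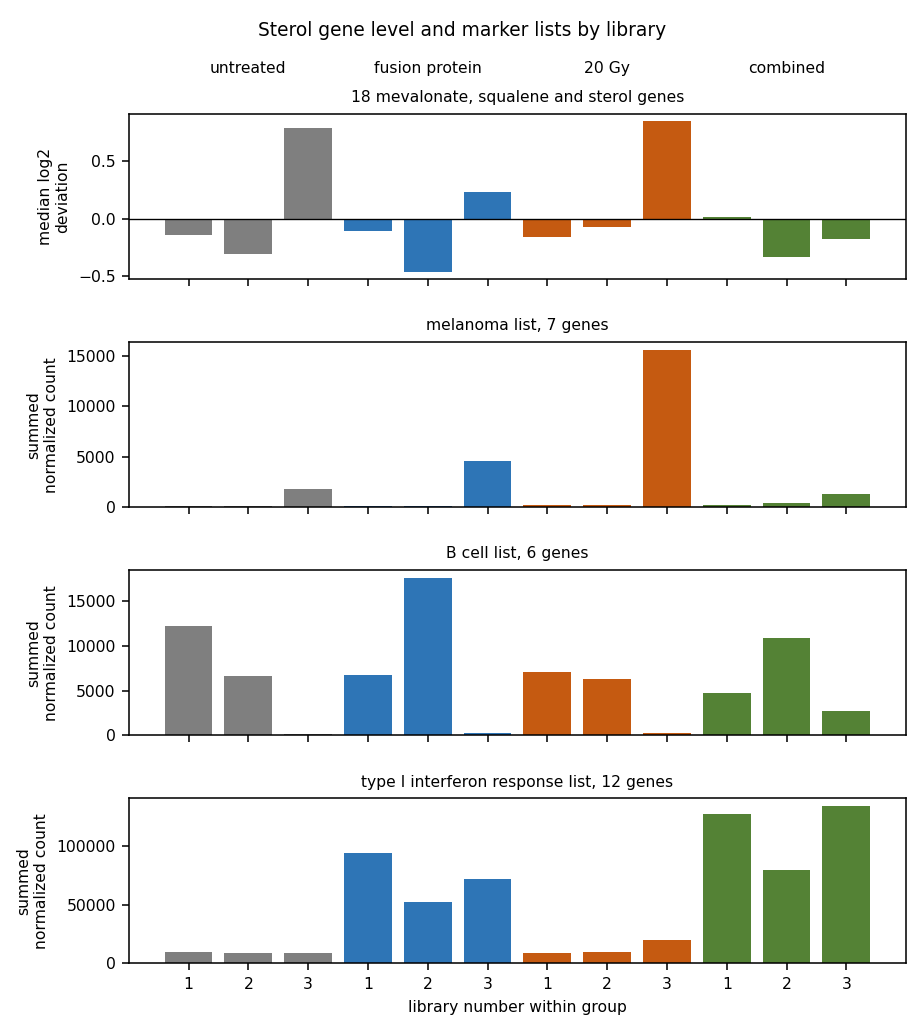
Sterol gene level beside 3 marker lists in each library. The top panel shows the median log2 deviation of 18 mevalonate and sterol genes from their means over 12 libraries, and the lower panels show the summed normalized counts of the melanoma, B cell and type I interferon response lists on linear axes from 0. The sterol level is highest in library 3 of the untreated (0.79) and 20 Gy (0.85) groups, the melanoma sum in 20 Gy library 3, and the interferon sum in the 6 libraries with the fusion protein.

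Scd1 went against most of the other genes in every group but the combined one. This desaturase gene (chromosome 19, 44394455 to 44407879) had 2583.5, 2275.3 and 82.8 normalized counts in the untreated libraries, 1376.0, 6257.4 and 185.7 with the fusion protein, 1481.0, 1349.0 and 287.9 after 20 Gy, and 1098.5, 4416.1 and 599.9 in the combined group. Library 3 was the lowest in every group. The B cell list summed to 12231, 6586 and 149 in the untreated libraries, to 6701, 17560 and 323 with the fusion protein, to 7043, 6340 and 255 after 20 Gy and to 4750, 10835 and 2672 in the combined group. It was thus lowest in the same 4 libraries, and its part in the Scd1 values was not tested. The neighbouring gene Scd2 was highest in library 3 of the untreated group, with 1255.8, 1832.2 and 2493.1. In the combined group its library 3 was the lowest, as for Scd1, at 966.4, 1335.4 and 813.1.

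The first comparison asked what the fusion protein changed without radiation. None of the 29 genes passed limma's adjusted threshold of 0.05, which 0.744% of all tested genes passed (136 of 18274). Fitted values were below the untreated group for 23 of 29 (50.5% of all genes), with a median log2 fold change of −0.24 (−0.01 over all genes). An unadjusted p under 0.05 was reached by 2 of the 29, against 8.41% of all genes, namely Nsdhl and Scap. Nsdhl, a dehydrogenase of sterol demethylation, had 207.4, 179.7 and 264.8 normalized counts in the untreated libraries and 155.5, 106.4 and 157.1 with the fusion protein. The groups did not overlap, and the log2 fold change was −0.64 ± 0.26 (SE, n = 3 per group, limma adjusted p = 0.499). Scap (chromosome 9, 110333288 to 110384950) had 850.7, 1239.4 and 1297.3 untreated and 704.4, 968.4 and 772.4 with the fusion protein, which overlap (log2 fold change −0.46 ± 0.21, limma adjusted p = 0.587).

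Mvd, the decarboxylase at the end of the mevalonate steps, had 97.4, 122.3 and 272.1 normalized counts untreated and 107.9, 75.0 and 60.4 with the fusion protein. Its fitted log2 fold change was −0.90 ± 0.42 (limma adjusted p = 0.610), and untreated library 3 was the single high value. The complete separation of groups seen for Nsdhl was shared by Acaca alone among the 29, against 4.70% of all genes separated in this direction, and none of the 29 was separated upward (5.94%). Hmgcs1, Cyp51 and Insig1 had log2 fold changes of −0.42 ± 0.47, −0.31 ± 0.76 and −0.28 ± 0.64, with 95% intervals from −1.45 to 0.62, −1.97 to 1.35 and −1.68 to 1.13. These intervals hold 0 as well as falls and rises by more than 0.5 on the log2 scale.

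The number of genes that were lower depended most on untreated library 3. Taken number by number, 20 of the 29 were lower with the fusion protein in library 1 (median log2 difference −0.03), 17 in library 2 (−0.08) and 25 in library 3 (−0.57). Without untreated library 3, 11 of 29 were lower, with a median of 0.08, and without fusion protein library 3, 25 of 29, with a median of −0.40. With the melanoma list level as a covariate, 25 of 29 were lower, with a median of −0.32. Without all 4 libraries numbered 3, an alternative chosen after these values were seen, 16 of 29 were lower, with a median of −0.08.

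The effect of 20 Gy alone was asked next. None of the 29 genes passed, and the share of all genes that passed was 0%. The median log2 fold change was −0.01 (0.04 over all genes), with 15 of 29 genes below the untreated group (46.7% of all genes). Scap was the only one with an unadjusted p under 0.05 (6.74% of all genes), at 668.8, 776.8 and 903.0 normalized counts after 20 Gy and a log2 fold change of −0.51 ± 0.21 (limma adjusted p = 0.722). Its groups overlapped, and no member separated the groups in either direction (4.79% of all genes separated downward and 6.73% upward). The 6 control and transport genes were all fitted lower, with a median of −0.08, and the 7 mevalonate genes were lower in 2, with a median of 0.20. Sqle, the squalene epoxidase gene, had 219.4, 149.8 and 433.5 normalized counts untreated and 260.5, 236.8 and 774.8 after 20 Gy. Its fitted log2 fold change was 0.58 ± 0.55 (95% interval −0.62 to 1.78), the highest of the 29, and the groups overlapped. Leaving out 1 library turned the direction either way, with 6 of 29 lower and a median of 0.26 without untreated library 3 and 23 of 29 and −0.33 without 20 Gy library 3. With the melanoma list level as a covariate, 22 of 29 were lower, with a median of −0.18.

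The third comparison, combined against 20 Gy, asked what the fusion protein changed after radiation. None of the 29 genes passed, against 1.03% of all tested genes. An unadjusted p under 0.05 was reached by 3 of 29, against 8.99% of all genes. Fitted values were lower for 25 of 29 (51.6% of all genes), with a median of −0.34 (−0.02 over all genes), and for 7 of 7 mevalonate and 10 of 11 sterol genes. In 4 genes every combined library lay below every 20 Gy library (9.55% of all genes): Msmo1, a sterol methyl oxidase gene, Srebf2, Acaca and Scd2. None of the 29 was separated upward (8.36% of all genes). Msmo1 had 392.5, 386.8 and 780.0 normalized counts after 20 Gy and 361.4, 241.4 and 348.7 in the combined group. Scd2 (chromosome 19, 44293674 to 44306864) had 1401.8, 1495.8 and 2851.8 and then 966.4, 1335.4 and 813.1, a log2 fold change of −0.84 ± 0.34 (limma adjusted p = 0.468). Sqle, with 297.6, 118.0 and 182.1 in the combined group, had −0.96 ± 0.55 (limma adjusted p = 0.717) and overlapped. For both Scd2 and Sqle, 20 Gy library 3 was far above the other 5 libraries.

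Here the number of genes that were lower depended most on 20 Gy library 3. In library 3, 27 of 29 genes were lower in the combined group, with a median log2 difference of −1.01. This held for 10 of 29 in library 1 (median 0.13) and for 17 of 29 in library 2 (−0.09). Numbers of the combined and 20 Gy groups were not taken as pairs, so these differences by number only describe the libraries. Without the 4 libraries numbered 3, 15 of 29 were lower, with a median of −0.01 (−0.06 over all genes). Without 20 Gy libraries 1 and 2 and combined library 1, the libraries with many receptor genes, 28 of 29 were lower, with a median of −1.01, but 20 Gy library 3 was then the only one of its group. Without 20 Gy library 3 alone it was 16 of 29, with a median of −0.05 (−0.07 over all genes). Combined library 3 also had fewer melanoma transcripts than 20 Gy library 3 (1302 against 15556). With the melanoma list level as a covariate, 25 of 29 were lower, with a median of −0.29.

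Between the combined and fusion protein groups, which asks what radiation changed in the presence of the fusion protein, none of the 29 genes passed (0% of all genes), and 1 reached an unadjusted p under 0.05 (2.92% of all genes). Fitted values were lower in 20 of 29 (46.3% of all genes), with a median of −0.15. Without fusion protein library 3 this was 14 of 29 with a median of 0.02, without the 4 libraries numbered 3 it was 13 of 29 with 0.07, and with the melanoma covariate 25 of 29 with −0.23. Dhcr7, the last reductase of cholesterol synthesis, had 227.4, 245.2 and 245.0 normalized counts with the fusion protein and 213.1, 151.0 and 148.5 in the combined group. Acly had 2806.0, 3490.9 and 4019.0 and then 2583.6, 2733.8 and 2693.0. Both separated the groups downward (3.81% of all genes), and Nsdhl, at 213.1, 218.6 and 214.1 in the combined group, separated them upward (4.48% of all genes). Nsdhl had a log2 fold change of 0.64 ± 0.26, and limma's adjusted p was 0.9997 or above for all 29.

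Combined against untreated gave the largest number of calls over all genes among the 5 pairs, 1.40% of those tested, and none of the 29. An unadjusted p under 0.05 was reached by 4 of 29, against 12.5% of all genes. Fitted values were lower in 24 of 29 (48.7% of all genes), with a median of −0.32 (0.02 over all genes). In Srebf2, Scap and Acaca every combined library lay below every untreated library (7.52% of all genes), and none of the 29 was separated upward (10.3%). Srebf2 (chromosome 15, 82147181 to 82205379) had 3677.6, 3097.8 and 4845.6 normalized counts untreated, 2249.7, 3097.8 and 3269.7 with the fusion protein, 2935.6, 2916.6 and 5409.1 after 20 Gy, and 2482.1, 2164.4 and 2421.9 in the combined group. The combined libraries were below all libraries of the untreated and 20 Gy groups and overlapped those with the fusion protein alone. Its log2 fold change against untreated was −0.69 ± 0.26 (limma adjusted p = 0.299). Scap, with 734.5, 662.2 and 656.8 in the combined group, had −0.70 ± 0.21 (limma adjusted p = 0.159).

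With the replicate number as a block, limma called both Scap (adjusted p = 0.0292) and Srebf2 (adjusted p = 0.0414) lower in the combined group than untreated, at a share of 7.73% of all genes. Without the 4 libraries numbered 3 their log2 fold changes were −0.56 and −0.54. The block called no member for the fusion protein against untreated (3.29% of all genes), 20 Gy against untreated (0.383%) or combined against fusion protein (0%). Over the 29 genes without the libraries numbered 3, 15 were lower in the combined group than untreated, with a median of −0.06. Without untreated library 3 alone it was 16 of 29 with −0.09, and with the melanoma covariate 27 of 29 with −0.48.

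**Figure D3:**
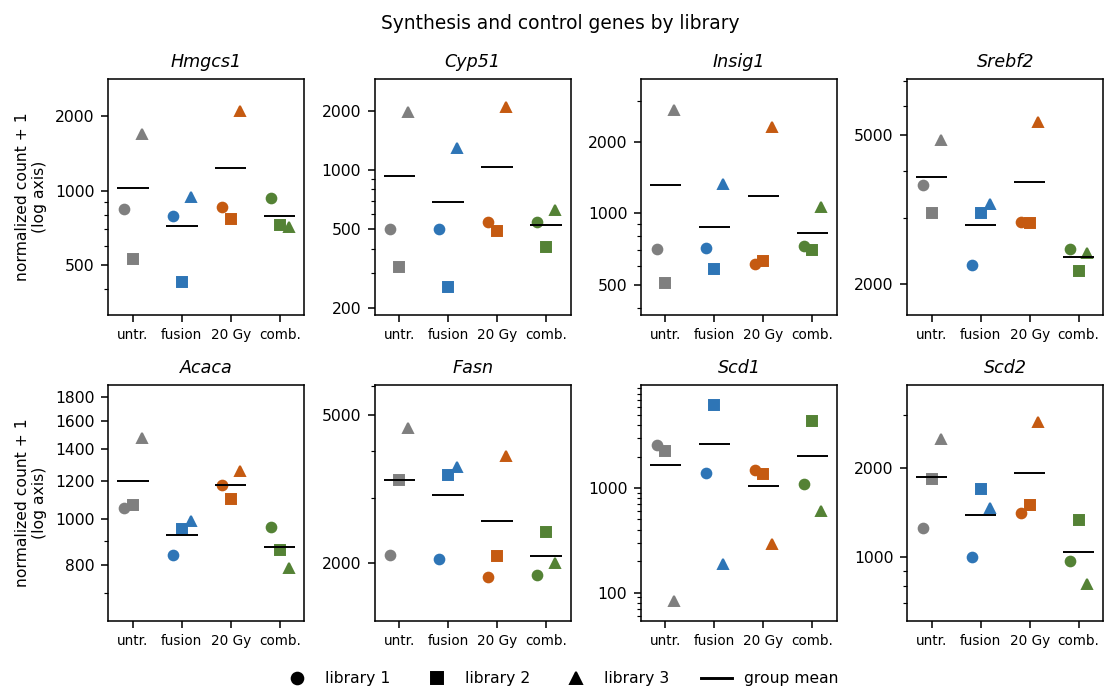
Normalized count + 1 of 8 genes in each library, on log axes. Groups are untreated (untr.), fusion protein (fusion), 20 Gy and combined (comb.), marker shapes give the library number, and bars are group means. In Acaca all 6 libraries with the fusion protein lie below all 6 without, Cyp51 and Insig1 are highest in library 3 of every group, and Scd1 is lowest there.

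Averaged over both radiation states, 6 libraries with the fusion protein were set against 6 without. None of the 29 genes passed limma's adjusted threshold, which 3.29% of all genes passed. An unadjusted p under 0.05 was reached by 6 of 29, against 14.5% of all genes. Fitted values were lower for 25 of 29 (52.2% of all genes), with a median of −0.30 (−0.02 over all genes). This was 7 of 7 mevalonate genes (median −0.43), 10 of 11 sterol genes (−0.35), 4 of 6 control and transport genes (−0.28) and 4 of 5 fatty acid genes (−0.18). The 4 with higher fitted values were Ebp, a sterol isomerase gene, Srebf1, Insig2 and Scd1. Without the 4 libraries numbered 3, 16 of 29 were lower, with a median of −0.06 (−0.04 over all genes). Leaving out 1 library at a time gave 20 to 26 of 29, the lowest without 20 Gy library 3. The melanoma covariate gave 25 of 29 and a median of −0.31.

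Acaca had the smallest p of the 29. It encodes acetyl-CoA carboxylase, which makes the malonyl-CoA from which fatty acids are built (chromosome 11, 84129672 to 84401651). Its normalized counts were 1054.4, 1065.9 and 1476.2 untreated, 838.7, 953.3 and 987.7 with the fusion protein, 1176.5, 1097.2 and 1255.1 after 20 Gy, and 962.8, 861.2 and 790.6 in the combined group. All 6 libraries with the fusion protein were below all 6 without, the only such case among the 29 (1.20% of all genes). None was separated upward in this way (1.86%). The log2 fold change was −0.40 ± 0.12 (95% interval −0.66 to −0.13), and limma's adjusted p of 0.126 missed the threshold. Without the 4 libraries numbered 3 it was −0.28. DESeq2 on the recovered reads gave an adjusted p of 0.031 for this gene. Acaca also had the smallest within-group SD of the 29, at 0.174 on the log2 scale.

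Srebf2 had a log2 fold change of −0.52 ± 0.19 in the same contrast (limma adjusted p = 0.196), Scd2 −0.62 ± 0.24 (0.24), Mvd −0.73 ± 0.30 (0.273), Nsdhl −0.45 ± 0.18 (0.28) and Scap −0.32 ± 0.15 (0.341). Without the libraries numbered 3 all 5 stayed below 0, at −0.35, −0.29, −0.19, −0.31 and −0.18. Genes that are standard SREBP targets had wide intervals: Hmgcs1 −0.46 (95% interval −1.19 to 0.27), Sqle −0.58 (−1.42 to 0.27), Cyp51 −0.49 (−1.66 to 0.68) and Insig1 −0.26 (−1.25 to 0.73). Idi1, the isomerase of the isoprenoid unit, had −0.19 (−0.91 to 0.53). In the fatty acid arm Fasn had −0.18 (−0.72 to 0.37) and Acly −0.02 (−0.44 to 0.39). Srebf1 had 0.12 (−0.29 to 0.53) and Scd1 0.67 (−1.61 to 2.96). All of these intervals hold 0.

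**Figure D4:**
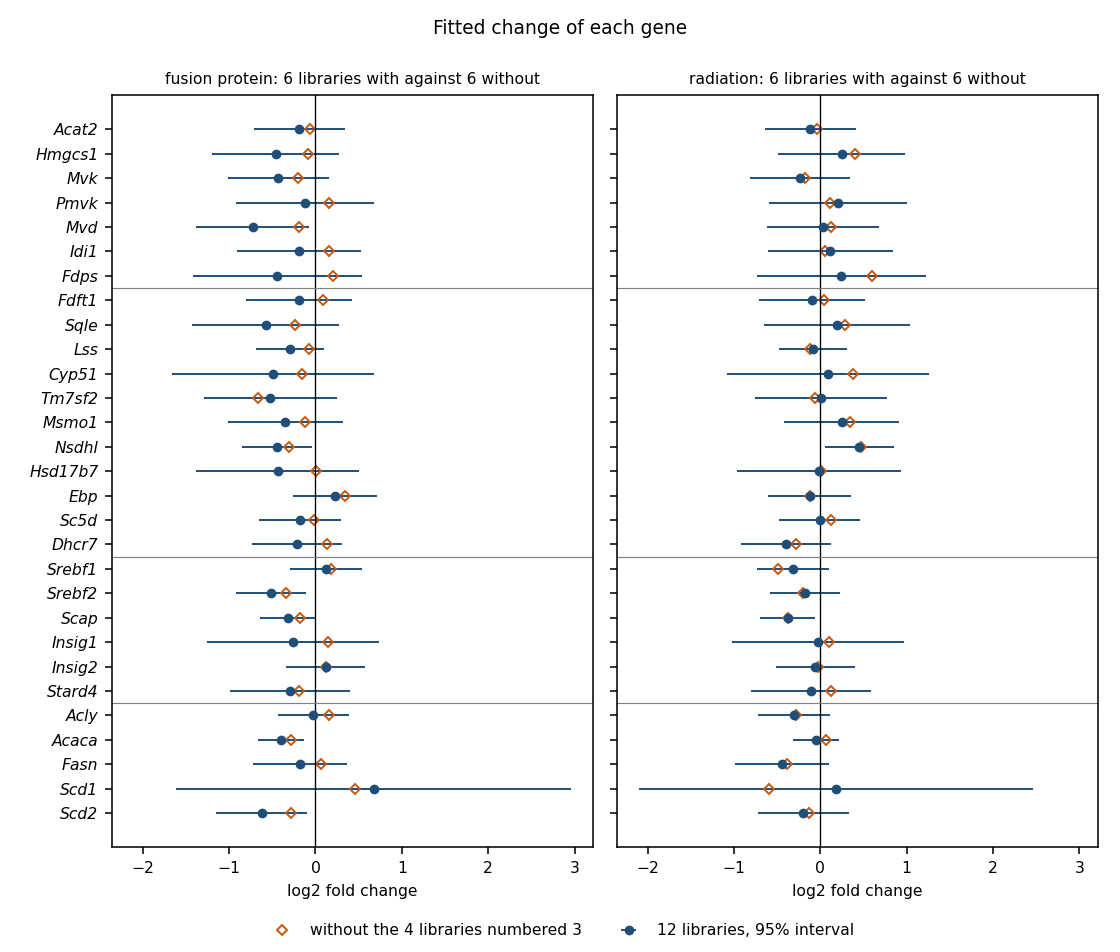
Fitted log2 fold change of each of the 29 genes for the fusion protein (left) and for radiation (right), 6 libraries with against 6 without. Filled points with bars are the fit on 12 libraries with its 95% interval, and open diamonds are the fit without the 4 libraries numbered 3. On the left 25 filled points lie below 0 and most diamonds lie closer to 0, and on the right the points lie on both sides of 0.

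For radiation, 6 libraries with against 6 without, none of the 29 genes passed (0% of all genes). The median was −0.05, with 18 of 29 lower (45.3% of all genes). It was 0.05 without untreated library 3 (13 of 29 lower), −0.23 without 20 Gy library 3 (23 of 29) and −0.23 with the melanoma covariate (23 of 29). Scap had −0.38 ± 0.15 (limma adjusted p = 0.429) and Nsdhl 0.45 ± 0.18 (limma adjusted p = 0.446), the only members with an unadjusted p under 0.05 (10.5% of all genes). Fasn had 2097.5, 3337.5 and 4619.0 normalized counts untreated, 2048.7, 3444.3 and 3634.5 with the fusion protein, 1828.6, 2080.8 and 3890.9 after 20 Gy and 1851.9, 2415.3 and 1998.1 in the combined group. Its groups overlapped, and its log2 fold change for radiation was −0.44 ± 0.25 (95% interval −0.98 to 0.10). The interaction, which asks whether the fusion protein acted differently with and without radiation, called none of the 29 genes (0% of all genes), and no member had an unadjusted p under 0.05 (1.03% of all genes). Its fitted values were below 0 for 21 of 29 (50.0% of all genes), with a median of −0.12. This direction turned without 20 Gy library 3 (9 of 29, median 0.18), without fusion protein library 3 (14 of 29, 0.02) and without the 4 libraries numbered 3 (11 of 29, 0.10), and was 13 of 29 and 0.01 with the melanoma covariate.

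The remaining genes followed several orders. Srebf1 had 694.2, 1254.4 and 712.8 normalized counts untreated, 776.3, 1311.9 and 803.1 with the fusion protein, 593.1, 682.5 and 811.4 after 20 Gy and 779.4, 728.3 and 721.6 in the combined group. Library 2 was the high one in the first pair of groups and library 3 was highest after 20 Gy. Srebf1 thus shared the library 3 pattern of Insig1 in the 20 Gy group alone. Insig2, a second retention protein, ranged from 94.1 to 167.7 over the 12 libraries and Stard4, a sterol carrier, from 162.1 to 558.6. Idi1 had 223.2, 118.6 and 334.1, then 220.0, 140.8 and 226.3, then 180.4, 148.9 and 496.0, and then 204.1, 176.2 and 210.6, with the order of Hmgcs1 in the first 3 groups. The remaining mevalonate genes ranged from 51.9 to 121.7 (Acat2), 70.1 to 213.1 (Mvk), 199.7 to 840.2 (Pmvk) and 23.2 to 114.8 (Fdps). The remaining sterol genes ranged from 291.7 to 747.3 (Fdft1), 51.9 to 290.5 (Hsd17b7), 217.2 to 508.7 (Ebp) and 273.5 to 645.5 (Sc5d).

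Genes given above in some groups only had these values in the others. Acly had 2536.3, 3298.8 and 4463.9 normalized counts untreated and 2146.3, 2485.8 and 4129.1 after 20 Gy, with library 3 highest in both. Scd2 had 1001.6, 1691.7 and 1459.1 with the fusion protein, and Sqle had 214.7, 137.8 and 325.2. Msmo1 had 363.2, 174.7 and 591.7 untreated and 324.7, 245.2 and 431.8 with the fusion protein, which overlap. The library 3 order thus also held for Sqle and Msmo1 and did not for Scd2 with the fusion protein. Dhcr7 had 185.0, 212.2 and 435.5 untreated and 184.8, 170.4 and 299.7 after 20 Gy. Mvd had 107.4, 116.8 and 192.4 after 20 Gy and 123.2, 87.3 and 69.9 in the combined group, and Nsdhl had 217.4, 223.9 and 348.1 after 20 Gy. In these groups too, library 3 was highest except in the combined group. Lss varied least of the sterol genes (within-group SD 0.278 on the log2 scale), at 224.7, 192.2 and 259.7 untreated, 230.6, 203.6 and 173.6 with the fusion protein, 217.4, 205.7 and 286.6 after 20 Gy and 234.6, 140.8 and 152.8 in the combined group.

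Genes next to synthesis in the pathway were described from 6 lists, with 71 of 74 genes tested. In the contrast of 6 libraries with the fusion protein against 6 without, 3 of the 71 passed, all lower, against 3.29% of all genes passing in either direction and 1.23% passing lower. By list these were 1 of 18 in fatty acid elongation, desaturation and supply, 1 of 5 in oxysterol synthesis and 1 of 14 in sterol uptake, storage and lysosomal export. None of 9 passed in SREBP processing and degradation, none of 12 in LXR and sterol efflux, and none of 13 in the isoprenoid branches. The list medians were −0.14, −0.65, −0.05, −0.16, −0.07 and 0.02, against −0.02 over all genes. None of the 71 passed in any of the other 7 contrasts.

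Cyp7b1, which hydroxylates 25-hydroxycholesterol and thereby removes it (chromosome 3, 18071950 to 18243338), had 21.7, 63.7 and 97.2 normalized counts untreated, 1.1, 0 and 6.6 with the fusion protein, 45.8, 63.2 and 285.3 after 20 Gy, and 2.7, 0.8 and 12.1 in the combined group. All 6 libraries with the fusion protein were below all 6 without. It fell by 4.41 ± 0.72 on the log2(value + 1) scale (limma adjusted p = 0.0057), a scale that understates the change of so low a gene, and without the libraries numbered 3 by 4.58. Ch25h, which makes 25-hydroxycholesterol, was low in many libraries, at 0, 7.5 and 8.3 untreated, 2.1, 0 and 116.5 with the fusion protein, 2.6, 2.1 and 47.1 after 20 Gy and 5.4, 61.3 and 303.0 in the combined group. Its groups overlapped, and its fitted log2 fold change was 1.67 ± 1.34 (limma adjusted p = 0.675). The type I interferon response list of 12 genes summed to 52523 to 133570 in the 6 libraries with the fusion protein and to 8763 to 19678 in the other 6. Flt3, a growth factor receptor of conventional dendritic cells, had 243 to 1606 and 1776 to 3690 in the same groups, and the whole dendritic cell list of 11 genes had a mean log2 level of 8.53 to 9.63 and 10.11 to 10.91, with no overlap. The sum of that list, which its abundant genes dominate, overlapped, at 22913 to 30458 and 24740 to 39975. An NK cell list of 6 genes summed to 30968 to 60494 with the fusion protein and to 10627 to 21777 without, again with no overlap, and all 6 genes were detected in every library. These 3 lists thus separated the same libraries as Cyp7b1, Fads1 and Acaca do, and the part of interferon or of cell types in any of these values was not tested.

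Cd36, a scavenger receptor for oxidised lipoproteins and fatty acids (chromosome 5, 17781690 to 17888801), had 1072, 181 and 373 normalized counts untreated, 198, 118 and 70.3 with the fusion protein, 1345, 943 and 869 after 20 Gy, and 244, 167 and 337 in the combined group. After 20 Gy all 3 libraries were above all 6 with the fusion protein, and the untreated libraries overlapped them. It fell by 1.96 ± 0.40 on the log2 scale (limma adjusted p = 0.0224). Fads1, a desaturase of polyunsaturated fatty acids (chromosome 19, 10182888 to 10196877), had 173.7, 158.5 and 224.5 untreated, 112, 69.9 and 125 with the fusion protein, 201, 186 and 369 after 20 Gy, and 128, 124 and 107 in the combined group, again with all 6 below all 6. It fell by 0.94 ± 0.22 on the log2 scale (limma adjusted p = 0.0452). Without the libraries numbered 3 neither passed, with Cd36 at −2.0 (limma adjusted p = 0.106) and Fads1 at −0.76 (limma adjusted p = 0.126). Without 20 Gy libraries 1 and 2 and combined library 1, limma's adjusted p was 0.0745 for Cyp7b1 and 0.343 for Cd36. Fads1 missed the threshold in all 12 fits that left out 1 library (adjusted p 0.0501 to 0.129), and Cd36 in 5 of them (0.0515 to 0.0657).

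The macrophage and monocyte list, whose cells use Cd36, summed to 8087 to 14263 in the untreated libraries, 12369 to 24913 with the fusion protein, 16087 to 18607 after 20 Gy and 19852 to 34175 in the combined group, with all 11 genes detected throughout, and its part in the Cd36 values was not tested. The lowest values of Cd36 were in the libraries with the fusion protein alone, combined library 2 and untreated library 2. Adipocyte markers, from cells that also use Cd36 and that a sort for CD45 should remove, summed to 20 to 347 untreated, 5.07 to 37 with the fusion protein, 160 to 561 after 20 Gy and 3.93 to 71 in the combined group, with up to 5 of 6 genes at 0, and their part was not tested. Abca1, the sterol efflux pump that LXR induces, had 1683, 3069 and 914 untreated, 599, 4025 and 443 with the fusion protein, 1133, 1354 and 1978 after 20 Gy and 565, 2850 and 880 in the combined group. Its groups overlapped, and its fitted log2 fold change was −0.54 ± 0.57 (limma adjusted p = 0.771). Plin2, which coats lipid droplets, had 669, 330 and 520 untreated and 1714, 1674 and 5267 in the combined group, and its log2 fold change for the fusion protein was 1.11 ± 0.53 (limma adjusted p = 0.371). Rxra, the partner receptor of LXR, had −0.92 ± 0.26 (limma adjusted p = 0.0897).

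The other genes of smallest p in each list did not pass in this contrast, and they lay on both sides of 0. Erlin1 and Erlin2, of the INSIG and reductase degradation machinery, had −0.70 ± 0.27 and −0.30 ± 0.23, and the ubiquitin ligase gene Rnf139 had 0.17 ± 0.13. Elovl5, an elongase, had −0.60 ± 0.20 and Acsl3, an acyl-CoA synthetase, −0.87 ± 0.40. Nr1h3, which encodes LXR alpha, had 0.83 ± 0.37 and Cyp39a1, an oxysterol hydroxylase, −0.95 ± 0.40. The lysosomal sterol carrier gene Npc2 had 0.78 ± 0.27 and the sterol transfer gene Stard3 0.66 ± 0.25. In the isoprenoid branches Pdss1 and Pdss2, the subunits that build the ubiquinone tail, had 0.59 ± 0.30 and −0.51 ± 0.28, and the prenyl transferase subunit gene Fnta had −0.16 ± 0.13. Limma's adjusted p for these genes lay between 0.169 and 0.669.

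With the replicate number as a block, more of these neighbouring genes passed limma's threshold in the pairs. Against untreated, 4 of 71 passed with the fusion protein (3.29% of all genes), namely Erlin1, whose product helps degrade INSIG and the reductase of the pathway, Cyp7b1 and Cd36 lower and the scavenger receptor gene Msr1 higher. After 20 Gy 2 of 71 passed (0.383% of all genes), both higher, the malic enzyme gene Me1, a source of NADPH for synthesis, and the lipoprotein receptor gene Lrp1. In the combined group 8 of 71 passed (7.73% of all genes), with Rxra and Cyp7b1 lower and Me1, Nr1h3, Plin2, Msr1, Npc2 and Stard3 higher. Msr1, Nr1h3 and Plin2 are genes of lipid-laden macrophages, and the macrophage list sums given above were higher too in the combined group. Their part in these values was not tested.

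**Figure D5:**
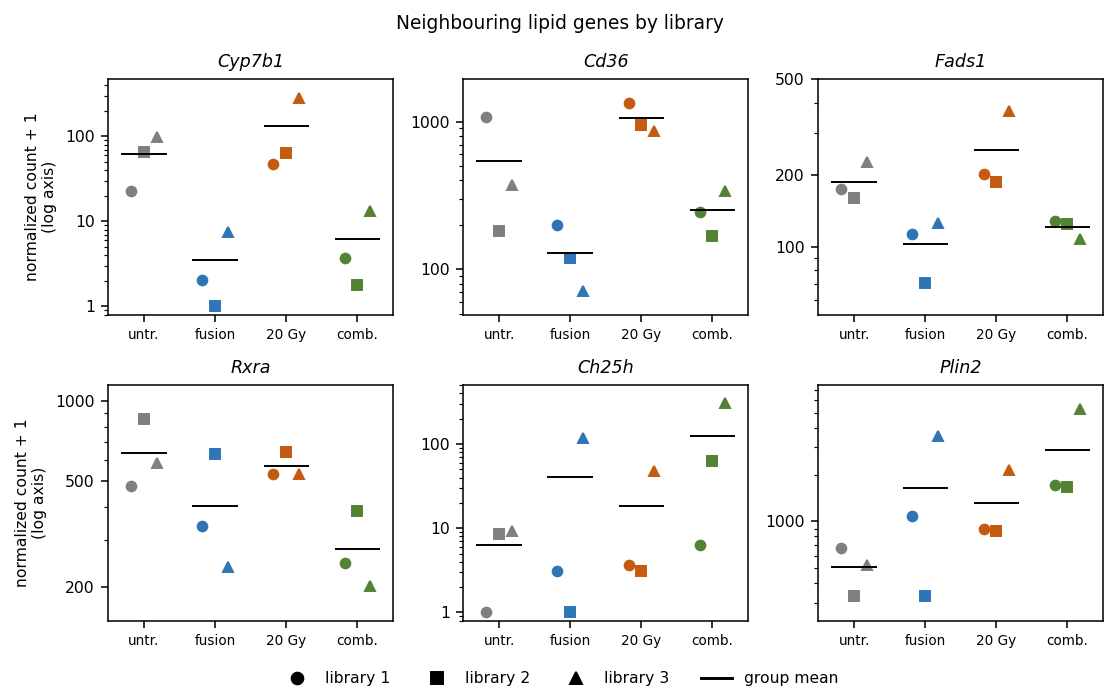
Normalized count + 1 of 6 neighbouring lipid genes in each library, on log axes. Groups are untreated (untr.), fusion protein (fusion), 20 Gy and combined (comb.), marker shapes give the library number, and bars are group means. Cyp7b1 and Fads1 have all 6 libraries with the fusion protein below all 6 without, Cd36 has the untreated libraries spread across both, and Ch25h is highest in library 3 of each group.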

How the data were processed

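RNA of 12 libraries, 3 in each of 4 groups, was sequenced as 100-base paired reads after library preparation with a stranded total RNA kit for low input (SMARTer v2 Pico), per the labels. The authors used FastQC, Trimmomatic, STAR, featureCounts and DESeq2 with genome build mm10, per the submitters' processing notes, and versions, settings and the strand option are not given in the sources used for this work. The deposited signal values are normalized counts, read counts divided by 1 size factor per library. Whole reads within 0.001 were recovered in 100% of values, and edgeR and DESeq2 were run on those reads as alternatives.

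Symbols, coordinates and exon lengths came from GENCODE vM21 (GRCm38), which matched 55141 of 55401 identifiers (99.53%). A gene was tested if 3 or more libraries held 10 or more normalized counts of it, which left 18274. Log2(value + 1) was fitted with limma 3.58.1 (R 4.3.3), all 12 libraries in 4 groups, with the variance trend on, and tests were two-sided with Benjamini-Hochberg adjustment over all tested genes at 0.05. Fold changes are on the log2(value + 1) scale, ± after a fold change is its SE and ± after a mean its SD. The fit was checked on simulated counts with known changes of 0.5, 1 and 2 on the log2 scale. For the fusion protein against untreated it called 0 of 63, 0 of 66 and 15 of 65 of the changed genes. Over both radiation states it called 0 of 64, 9 of 61 and 27 of 60. Of the unchanged genes it called 0 of 17249 and 4 of 17262. The lack of a call alone thus does not exclude a change of these sizes. Where an interval is given above for a gene, it shows which sizes the fit allows for that gene. For Acly over both radiation states the interval held none of these sizes in either direction. Alternatives were edgeR 4.0.16, DESeq2 1.42.0, TMM scaling, pseudocounts of 0.5 and 8, no filter, the compared groups alone, a replicate block, each library left out, and 3 more chosen after seeing the data: without the libraries numbered 3, without 20 Gy libraries 1 and 2 and combined library 1, and the melanoma list level as a covariate.

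Same-numbered libraries correlated in their deviations from group means at 0.473 to 0.621 for the fusion protein and untreated groups, 0.156 to 0.496 for 20 Gy and untreated, 0.41 to 0.484 for combined and fusion protein, and 0.334 to 0.389 for combined and untreated, so blocked values are given for these pairs. For combined and 20 Gy the range was 0.01 to 0.505, and the numbers were not taken as pairs. What the number marks is not stated. No libraries of a group agreed within sampling noise.

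The 29 genes, the lists and the rule for named genes were chosen with earlier results of these data known. Values in every library are given for 11 genes named by that rule and for those of smallest p, and of the other lists for the 3 of smallest p plus Ch25h and Abca1. Genes called under the block alone, Flt3 and the ranges of other genes were named after their values were seen. Some genes of the pathway are not reported here.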

Additional observations from a re-analysis of the deposited data

How the results depend on the processing

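The count of 0 of 29 synthesis genes called held in all 8 contrasts under TMM scaling, the other pseudocounts, no filter, edgeR and all 12 fits that left out 1 library, and in the 5 pairs with the compared groups alone. DESeq2 called 1 of 29 for combined against untreated (Scap, adjusted p = 0.0387) and 1 for the fusion protein over both radiation states (Acaca, adjusted p = 0.031). The replicate block called 2 in each of these contrasts, and so did the melanoma covariate. In the second contrast these were Acaca (0.0381 and 0.0355) and Srebf2 (0.0260 and 0.0215). Over all 18274 tested genes the block called 7.73% in the first contrast, and the alternatives called up to 1989 in the second. At 0 calls, unadjusted p-values under 0.05 numbered 2, 1, 3, 1, 4, 6, 2 and 0 in the order of the report.

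Among the 71 neighbouring genes, 0 passed in the pairs. For the fusion protein against untreated DESeq2 called 2, the block 4 (3.29% of all genes) and the covariate 2. For 20 Gy against untreated the block called 2 (0.383% of all genes). For combined against 20 Gy the compared groups alone gave 1, DESeq2 3, the block 5, the covariate 4, and leaving out 1 library 0 to 1. Of all 18274 genes, up to 834 passed in this pair among the alternatives. For combined against untreated DESeq2 gave 3, the block 8 (7.73% of all genes), the covariate 8, and leaving out 1 library 0 to 1. For the fusion protein over both radiation states the 3 calls became 12 with the block, 9 with the covariate, 0 without 20 Gy libraries 1 and 2 and combined library 1, and 1 to 3 with 1 library left out. For radiation the block gave 8 (815 of all 18274 genes) and the covariate 2. Calls over all genes for the fusion protein over both radiation states reached 1989 among the alternatives. Numbers of the combined and 20 Gy groups were not taken as pairs. The block counts for combined against 20 Gy, for the fusion protein over both radiation states and for radiation thus only describe that setting. The same holds for the block calls of Acaca and Srebf2 over both radiation states. The cause of the differences between settings was not tested.

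Calls over all genes ranged from 18 to 602 for the fusion protein (136 in the fit reported), from 0 to 834 for combined against 20 Gy (188), from 80 to 1413 for combined against untreated (256) and from 87 to 1989 for the fusion protein over both states (602). They rose from 0 to as many as 70 for 20 Gy and 815 for radiation, both with the block. Of 232 fitted values of the 29 genes, 73 changed sign without the libraries numbered 3, 55 without untreated library 3, 41 without 20 Gy library 3, 13 with edgeR and 2 with TMM scaling.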
